A study of Nicotiana benthamiana with 9 samples.

Results

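The sequences described here are 68 scaffolds and contigs of Nicotiana benthamiana that already carried reads in mock leaves, rose at least 8-fold after heat and stayed near their mock level after wounding. They were chosen by measured values, from the columns that the authors headed CPM. A sequence belonged if its mock mean was at least 1, its heat mean was at least 8 times its mock mean, its wound mean was between 0.67 and 1.5 times its mock mean, and every heat library lay above every mock library. A constant of 0.5 was added to each mean before a ratio was taken, and the ratios are written H/M and W/M below. Of the 56094 rows of the table, 16276 had a count in any library, 8793 had a mock mean of at least 1, and 68 met every criterion. The choice therefore fixes that these sequences rise after heat and not after wounding, and all values of those contrasts below describe the members without testing them.

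The libraries were made from leaves of soil-grown plants aged 5 weeks, kept under long days. Heat plants were exposed to 37 °C for 1 h (3 libraries), wound plants were cut with scissors and then held at 23 °C for 1 h (3 libraries), and mock plants, the control, were held unwounded at 23 °C for 1 h (3 libraries). The series calls the 3 libraries of a group biological replicates, without saying how many plants each one holds. No genotype or transgene is named in the labels.

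Plants that become too warm activate heat shock transcription factors, which bind elements in the promoters of chaperone genes. The chaperones made in this way, such as the HSP20, HSP70, HSP90 and HSP100 families, hold, refold or disentangle damaged proteins. Some chaperone genes are nearly silent at normal temperature, and others are expressed at all times for routine protein folding and are raised further by heat. Wounding, by contrast, is known to act mainly through jasmonate and ethylene signalling. This is background only: the table pairs no sequence with a gene, each row is a whole scaffold or contig, and a scaffold can hold many genes. Which genes rose on these sequences was not analysed here, and the leaf label could not be checked against marker genes. No genome sequence was used here, so none is printed.

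A value in CPM is a count of a whole sequence scaled by the authors to about 1000000 per library. The sums per library ran from 909726 to 1068742, so a value is close to a share of the reads but not equal to it. It is not a level per length, and an order by CPM is taken below as an order of read share. The libraries held between 13846165 and 17480792 counts. Correlations of log2 CPM between libraries of 1 group were 0.979 to 0.987. The members' counts in single mock libraries ran from 8 to 4569, and 1 of the 68 had fewer than 10 counts in a mock library. In leaf samples such as these, fewer cells that use a gene and less RNA per cell cannot be told apart.

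Together the 68 sequences took 5.39%, 5.90% and 5.47% of all counts in the heat libraries. They took 0.312%, 0.331% and 0.309% in the wound libraries and 0.308%, 0.319% and 0.306% in the mock libraries. The group means were 5.59% ± 0.274 after heat, 0.318% ± 0.0119 after wounding and 0.311% ± 0.00674 in mock (SD, n = 3 each). The heat libraries lay far above the other 6, which the choice of members makes certain, and the wound and mock ranges overlapped.

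**Figure D1:**
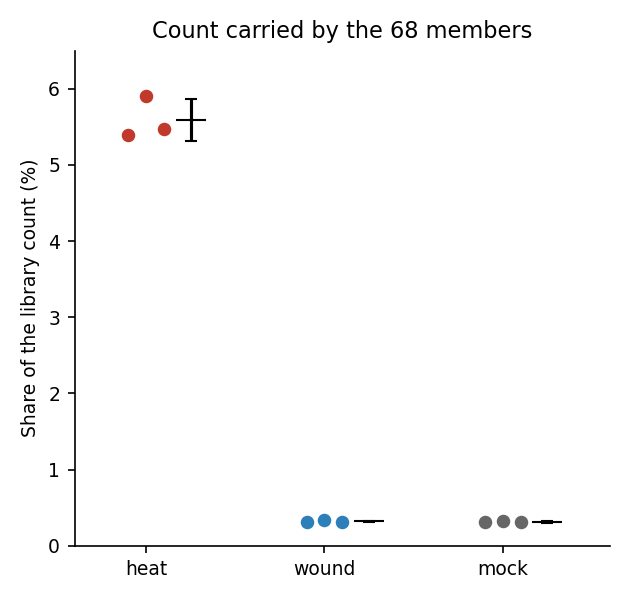
Share of each library's total count (percent, y axis) carried by the 68 members in the heat, wound and mock groups. Coloured points are single libraries, and the black bar beside them is the mean ± SD of 3 libraries. Heat libraries lie between 5.39% and 5.90%, and wound and mock libraries lie between 0.306% and 0.331%.

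The members' part in the rise after heat is a description, since the rule chose them by the same heat and mock values. The heat means of all rows summed to 1042520 CPM and the mock means to 958707 CPM. The summed rise therefore depends on the authors' scaling, and it was not repeated with another one. Over all rows, heat means exceeded mock means in 7578 sequences, by a summed 229476 CPM. The 68 members accounted for 55346 CPM of that sum, or 24.1%. Among the 100 sequences with the highest read share, 14 were members after heat, 0 were after wounding and 0 were in mock leaves. The read share was concentrated within the set too: 20 members had heat means of at least 1000 CPM and held 78.7% of the members' summed heat CPM, while the 18 members below 100 CPM held 1.48%.

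Heat means ran from 16.2 to 4463 CPM with a median of 327, wound means from 1.16 to 287 CPM with a median of 21.2, and mock means from 1.01 to 267 CPM with a median of 18.1. The ratio H/M ran from 8.02 to 356, with a median of 12.9. Of the 68, 44 lay below 16, 14 between 16 and 32, 6 between 32 and 64, and 4 above 64. Most members therefore had less than 2 times the ratio that the rule asked for. In the edgeR fit, all 68 were called higher after heat (quasi-likelihood test, Benjamini-Hochberg adjustment over 9645 sequences, adjusted p at most 7.63e-04), where 27.4% of all tested sequences were. That count follows from the choice of members. Their fitted log2 fold changes had a median of 3.81 and a median standard error of 0.186. The median over all tested sequences was 0.01. The members took places between 55 and 321 in the order of fitted heat responses, so many sequences with larger fitted responses are not among them.

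**Figure D2:**
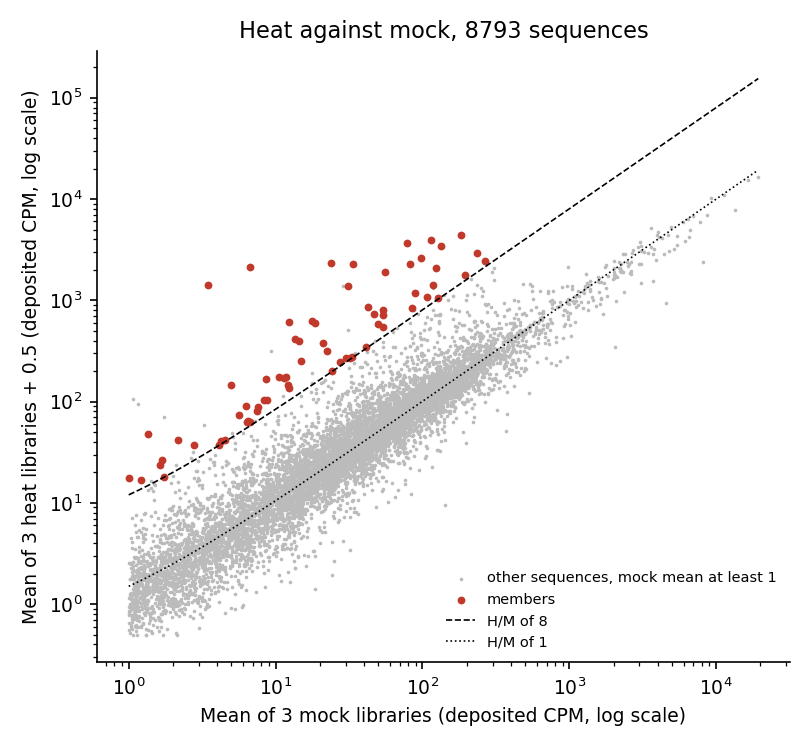
Mean of 3 heat libraries plus 0.5 (y axis, deposited CPM, log scale) against the mean of 3 mock libraries (x axis, deposited CPM, log scale) for 8793 sequences with a mock mean of at least 1. Red points are the 68 members, grey points are all others, and the dashed and dotted lines mark H/M of 8 and 1. Members span mock means of 1.01 to 267 CPM, and grey points above the dashed line missed a criterion on wounding or on overlap.

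The sequences with the largest read share after heat were scaffolds of 178960 to 1060080 nt that already carried reads in mock leaves, with mock means of 78.4 to 234 CPM. Niben101Scf04040 (positions 1 to 1060080) had 3821, 5189.9 and 4378 CPM in heat libraries and 176, 174 and 158 CPM in wound libraries, against 177, 203 and 173 CPM in mock libraries. It ranked number 15 of all rows after heat and number 894 in mock leaves, with a log2 fold change of 4.61 ± 0.143 (SE). Its heat libraries were well above all others, and its wound libraries reached below the mock range. Niben101Scf10796 (positions 1 to 178960) was the member whose heat libraries lay closest together among those with a heat mean of at least 10 CPM. It had 3869.8, 3870.3 and 4001 CPM after heat, a coefficient of variation of 1.94%. Its wound libraries had 121, 164 and 131 CPM and its mock libraries 149, 87.3 and 106 CPM, so that these groups overlapped.

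The next in read share behaved in the same manner. Niben101Scf10384 (positions 1 to 365057) had 3274, 4275 and 3580.2 CPM after heat, 101, 114 and 96.7 CPM after wounding and 93.4, 62.6 and 79.2 CPM in mock. Its wound libraries all lay above its mock libraries, with an H/M of 47 and a W/M of 1.33. Niben101Scf04537 (positions 1 to 269025) had 2927, 4564 and 2754 CPM after heat, 113, 105 and 129.8 CPM after wounding and 182, 85.9 and 136 CPM in mock. Here replicate 2 was the highest of the heat libraries and the lowest of the mock libraries. Niben101Scf04847 (positions 1 to 479878) had 2745, 2838 and 3259.8 CPM after heat, 252, 299.7 and 226 CPM after wounding and 242, 231 and 230.2 CPM in mock, a lower ratio of 12.6 from a higher start.

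**Figure D3:**
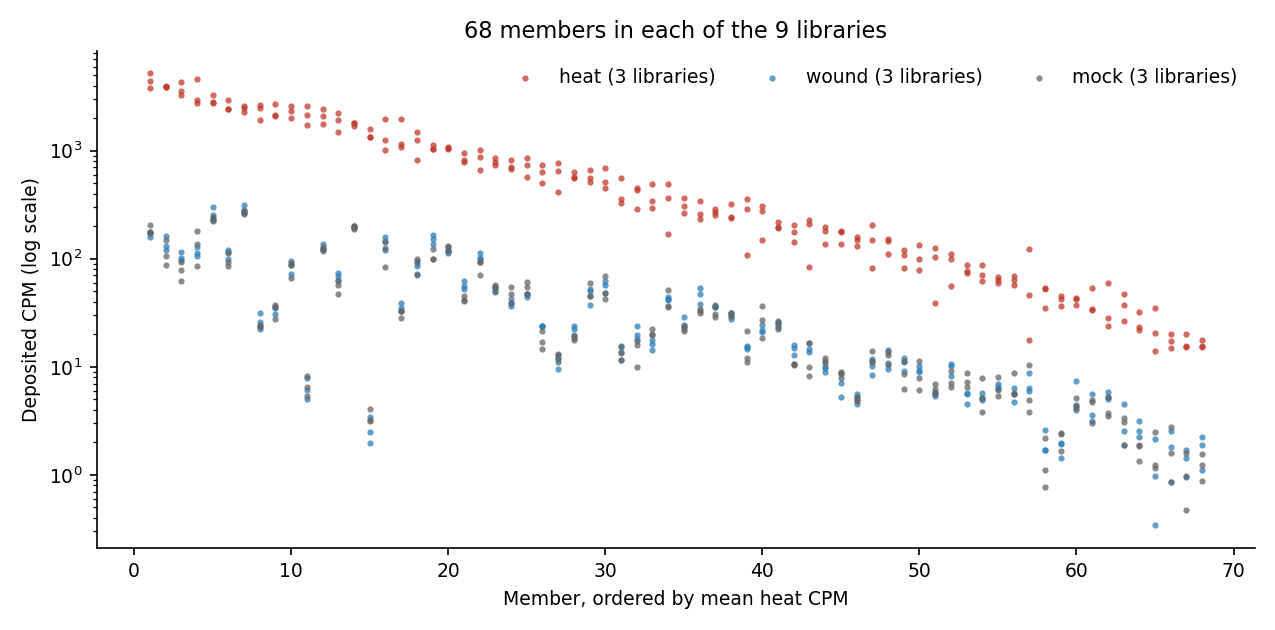
Deposited CPM (y axis, log scale) of the 68 members, ordered along the x axis by mean heat CPM, with 1 point per library: heat in red, wound in blue and mock in grey. Wound and mock points mostly intermix, heat means fall from 4463 to 16.2 CPM, and 2 members among the first 15 stand out by mock means of 6.71 and 3.48 CPM.

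The largest ratios belonged to scaffolds with low or moderate mock values. Niben101Scf01475 (positions 1 to 132452) had 1326, 1587 and 1340.2 CPM after heat, 3.45, 1.99 and 2.50 CPM after wounding and 3.22, 4.05 and 3.18 CPM in mock. That is an H/M of 356 and a log2 fold change of 8.67 ± 0.194 (SE). It ranked number 102 of all rows after heat, number 7833 after wounding and number 7518 in mock leaves. Niben101Scf04091 (positions 1 to 177307) had 1734, 2595 and 2116 CPM after heat, 7.80, 6.10 and 5.06 CPM after wounding and 8.25, 5.34 and 6.54 CPM in mock, an H/M of 298. These scaffolds combine a mock read share near the lower end of the set with a heat read share near the upper end.

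A second pair started higher. Niben101Scf10306 (positions 1 to 171310) had 1927, 2626 and 2456 CPM after heat, 22.4, 31.4 and 26.1 CPM after wounding and 23.7, 24.6 and 23.5 CPM in mock, an H/M of 95.5. Niben101Scf09973 (positions 1 to 84977) had 2138, 2695 and 2084 CPM after heat, 36.2, 30.7 and 34.9 CPM after wounding and 36.0, 28.0 and 37.4 CPM in mock, an H/M of 67.3 and a W/M of 1.00. The fifth by ratio, Niben101Scf07436 (positions 1 to 119952), had 648, 762 and 418 CPM after heat, 11.8, 12.2 and 9.52 CPM after wounding and 13.2, 11.1 and 13.0 CPM in mock, with an H/M of 47.2. In each of these 3 scaffolds replicate 2 was the highest heat library.

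At the other end stand short contigs. The 6 contigs were also the 6 members under 2000 nt, with heat means of 16.2 to 104 CPM and ratios of 8.02 to 12.1. The shortest, Niben101Ctg01820 (positions 1 to 539), had 23.6, 31.9 and 22.1 CPM after heat, 2.54, 2.26 and 3.15 CPM after wounding and 1.35, 1.84 and 1.88 CPM in mock. Its wound libraries all lay above its mock libraries and gave the highest W/M of the set, 1.44. Niben101Ctg05021 (positions 1 to 646) had 62.8, 87.9 and 70.1 CPM after heat, 5.20, 4.93 and 5.78 CPM after wounding and 7.93, 3.81 and 5.11 CPM in mock. The contigs and several scaffolds near the lower limit rest on few reads: Niben101Ctg12141 (positions 1 to 1454), named after its values were seen, had 33, 5 and 15 counts in the wound libraries and 39, 19 and 21 in the mock libraries.

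A short contig can repeat part of a longer sequence. Niben101Ctg05829 (positions 1 to 683) and the scaffold Niben101Scf04490 (positions 1 to 39273) had near-equal values in every group, and were named after this was seen. The contig had 81.8, 121 and 108 CPM after heat, 11.1, 12.1 and 9.06 CPM after wounding and 11.4, 6.26 and 8.65 CPM in mock. The scaffold had 78.2, 133 and 99.7 CPM after heat, 8.91, 10.1 and 9.39 CPM after wounding and 11.2, 6.08 and 7.83 CPM in mock. The values of the pair are close in level as well as in their pattern over the 9 libraries. In pattern alone, other pairs of members lay closer. An example is Niben101Scf00127 and Niben101Scf00449, scaffolds of 544383 and 744899 nt with heat means of 1772 and 2448 CPM. Whether Niben101Ctg05829 and Niben101Scf04490 share sequence was not tested, and counts of near-identical copies are uncertain.

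After wounding, the median W/M of the members was 1.03, within a range of 0.72 to 1.44 that the choice of members set. There were 42 above 1 and 26 below, and 26 lay between 0.9 and 1.1. In 11 members every wound library lay above every mock library, and in 3 every wound library lay below. Over the 8793 sequences with a mock mean of at least 1 this was the case for 20% and 17.3%. The edgeR quasi-likelihood test called 3 of the 68, against 14.9% of all tested sequences, and 10 had an unadjusted p under 0.05. Nothing can be read from that low count, because the window on W/M removed sequences with larger responses.

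The 3 that were called are scaffolds with small changes. Niben101Scf02829 (positions 1 to 1060589), the longest member, had 151, 164 and 136 CPM after wounding, against 99.7, 122 and 99.0 CPM in mock, a log2 fold change of 0.48 ± 0.109 (SE). After heat it reached 1037, 1117 and 1046 CPM. Niben101Scf06890 (positions 1 to 244047) had 55.8, 61.8 and 52.5 CPM after wounding, against 45.5, 40.4 and 41.5 CPM in mock, a log2 fold change of 0.41 ± 0.103, and 781, 947 and 818 CPM after heat. Niben101Scf03179 (positions 1 to 170684) went the other way, with 5.72, 5.55 and 4.53 CPM after wounding, against 6.51, 7.30 and 8.71 CPM in mock, a log2 fold change of -0.52 ± 0.152. Its heat libraries had 74.3, 87.5 and 76.4 CPM. The groups did not overlap in any of these 3, and their edgeR adjusted p-values were 0.0122, 0.0208 and 0.0405. The count changed with single libraries. It was 0 without wound replicate 2 or mock replicate 3 (8 and 10 unadjusted p under 0.05). It was 1 without wound replicate 1 or mock replicate 2, 5 without mock replicate 1 and 6 without heat replicate 2. Calls over all tested sequences moved too, from 951 higher and 484 lower in the main fit. They were 661 and 297 without wound replicate 2 and 616 and 258 without mock replicate 3. They were 627 and 194 without wound replicate 1 and 777 and 349 without mock replicate 2. They were 768 and 410 without mock replicate 1 and 1118 and 606 without heat replicate 2. DESeq2 called 5. With upper-quartile factors the call of Niben101Scf06890 was lost (edgeR adjusted p = 0.0535, log2 fold change 0.34). Over the single omissions that ended a call, the edgeR adjusted p was 0.0584 and 0.0622 for Niben101Scf02829, 0.0629 to 0.0977 for Niben101Scf06890 and 0.0665 to 0.153 for Niben101Scf03179.

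Set directly against wound libraries, the heat libraries were higher in all 68 members, with no overlap of the groups. The share of all sequences without such an overlap was not counted here, so nothing is read from this. The edgeR test called all 68, against 26.7% of all tested sequences, with a median log2 fold change of 3.83. The criteria on H/M and W/M together fix a large difference between the group means. They do not by themselves keep single libraries apart. Niben101Scf11860, which met both but not the criterion on overlap with mock, had 15.9 CPM in heat replicate 2 and 16.5 CPM in wound replicate 2.

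The spread between heat libraries was not a criterion, apart from the demand that none fall into the mock range. The median coefficient of variation of the members was 17.1% over the heat libraries, 11.3% over the wound libraries and 15.2% over the mock libraries. Over the 6331 sequences with a heat mean of at least 10 CPM it was 10.1% in heat libraries. It was 30.6% in the 11 sequences with the same H/M that were also higher after wounding and 31.6% in the 10 that were lower. In the 90 with the same H/M and a mock mean below 1 it was 26.4%. It was 14.1% in the 619 that met the other criteria with an H/M from 2 to below 8. Over all 8793 with a mock mean of at least 1 it was 12.7%. These sets differ in read share, with median heat means of 327 CPM in the members and 7.89 CPM in the 90. Their spreads are therefore not set against each other at like levels. Heat replicate 1 was the lowest of the 3 heat libraries in 31 members and the highest in 4. Among the sequences with a mock mean of at least 1, it was lowest in 29.7% and highest in 30.3%. Heat replicate 2 was highest in 38 members (55.9%) and lowest in 22 (32.4%), so it seldom lay in the middle. Among the sequences with a mock mean of at least 1, heat replicate 2 was highest in 36.1% and lowest in 38.7%. On the log2 scale, with 0.5 added, it lay above the mean of replicates 1 and 3 by a median of 0.20 in the members and was level with it, at -0.003, in the sequences with a mock mean of at least 1.

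Over the members, heat replicate 2 deviated from the mean of heat replicates 1 and 3 by -2.07 to 1.17 on the log2 scale. In 11 it exceeded the mean of replicates 1 and 3 by at least 0.5 on the log2 scale, or 16.2% of the set, against 6.81% of the sequences with a mock mean of at least 1. In 9, or 13.2%, it fell short by at least 0.5, against 9.46%. The groups by sign and size were formed after the values were seen, by the threshold of 0.5 alone. No such groups are given for heat replicates 1 and 3. Niben101Scf00148 (positions 1 to 254974), the member with the widest spread, had 46.6, 17.7 and 123 CPM after heat, 8.71, 6.03 and 6.44 CPM after wounding and 3.80, 10.3 and 4.95 CPM in mock. Replicate 2 was thus the lowest heat library and the highest mock library, and the lowest heat library exceeded the highest mock library by a factor of 1.71, the smallest gap in the set.

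The same order appeared in some other members with a low heat replicate 2, and not in the rest of them. Niben101Scf02648 (positions 1 to 598101) had 291, 108 and 360.1 CPM after heat, 15.6, 14.7 and 15.2 CPM after wounding and 12.1, 21.2 and 11.1 CPM in mock. Niben101Scf07714 (positions 1 to 117104) had 211, 84.1 and 230.3 CPM after heat, against 10.1, 16.8 and 8.30 CPM in mock. The row that missed the set only through the criterion on overlap, Niben101Scf11860 (positions 1 to 70788), had 134, 15.9 and 304 CPM after heat, against 10.3, 31.9 and 11.2 CPM in mock. Its heat replicate 2 lay below its mock replicate 2. In 5 of the 9 members with a low heat replicate 2, mock replicate 2 was the highest mock library, and in 2 it was the lowest. In 7 of the 11 with a high heat replicate 2, mock replicate 2 was the lowest, and in 3 it was the highest. Among the sequences with a mock mean of at least 1, mock replicate 2 was highest in 39.2% and lowest in 37.2%.

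Across the 68 members, the deviation of replicate 2 after heat and that in mock had a Pearson r of -0.44. Across all 8793 sequences with a mock mean of at least 1 it was -0.21. These are descriptions: the points share the same libraries, and sequences are not independent replicates. The corresponding r between heat and wound libraries was -0.05 in the members. The replicate numbers are not known to pair the libraries. RNA quality was not measured in the sources used here, and its part in these deviations was not tested. Without heat replicate 2, the same rule gave 69 sequences, of which 63 were members.

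**Figure D4:**
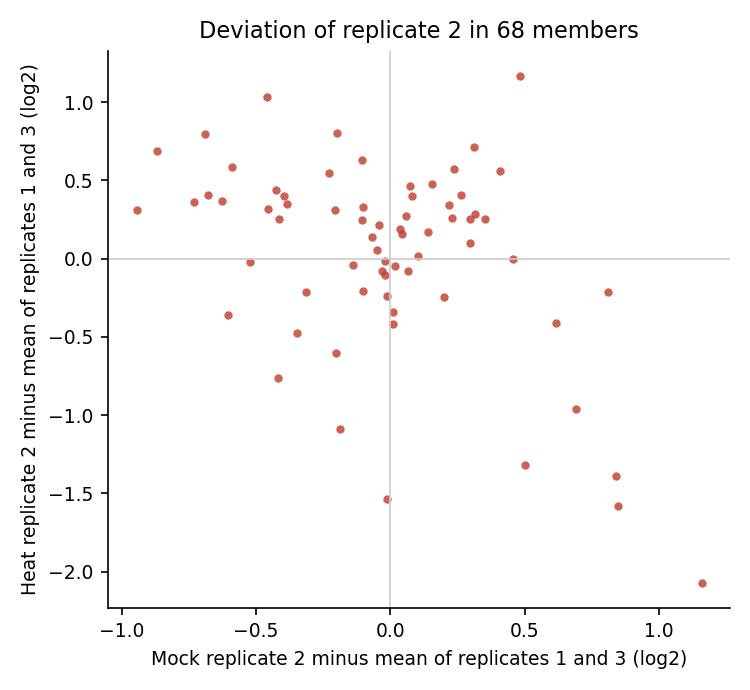
Deviation of heat replicate 2 from the mean of heat replicates 1 and 3 (y axis, log2) against the same deviation of mock replicate 2 (x axis, log2), 1 point per member. The points with the lowest heat replicate 2 lie mostly to the right, where mock replicate 2 is high, and the lowest, at -2.07, is Niben101Scf00148.

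Length was not used by the rule. The members had a median length of 183502 nt, with quartiles of 77601 and 383928 nt, against a median of 219520 nt over all sequences with a mock mean of at least 1. Of the 68, 62 were scaffolds, of 33001 nt or more, and the 6 contigs ran from 539 to 1454 nt. No member lay from 2000 to under 20000 nt, where 7.04% of the sequences with a mock mean of at least 1 lay. The difference was not tested. Contigs made up 8.82% of the members and 11.7% of the sequences with a mock mean of at least 1.

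Within the set, longer sequences had a larger read share after heat, with no like order in the ratio. The median heat mean was 24.5 CPM in the 6 members under 2000 nt, 96.1 CPM in the 14 from there to under 100000 nt, 595 CPM in the 26 from there to under 300000 nt, and 719 CPM in the 22 longer ones. The median H/M in the same classes was 11.1, 11.7, 17.1 and 12.0. Pearson's r across the 68 was 0.60 between log2 length and log2 heat mean and 0.15 between log2 length and log2 H/M. The 4 ratios above 64 belonged to scaffolds of 84977 to 177307 nt. How many genes each scaffold holds was not analysed here.

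Sequences with the same H/M but a mock mean below 1 were mostly shorter. There were 90 of them, with a median length of 1481.5 nt, and 52.2% were under 2000 nt, against 8.82% of the members. Under 2000 nt were also 8.84% of all sequences with a mock mean of at least 1. Of the 16276 sequences with a count in any library, 38.5% were. The share over all sequences with a mock mean below 1 was not counted here. The shorter length is therefore not read as a trait of the heat response. Their median heat mean was 7.89 CPM and their heat means summed to 1566 CPM, against 58324 CPM for the 68 members. Sequences that met the other criteria but rose less, with an H/M from 2 to below 8, numbered 619 and had a median length of 236395 nt. Their median heat coefficient of variation was 14.1%.

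**Figure D5:**
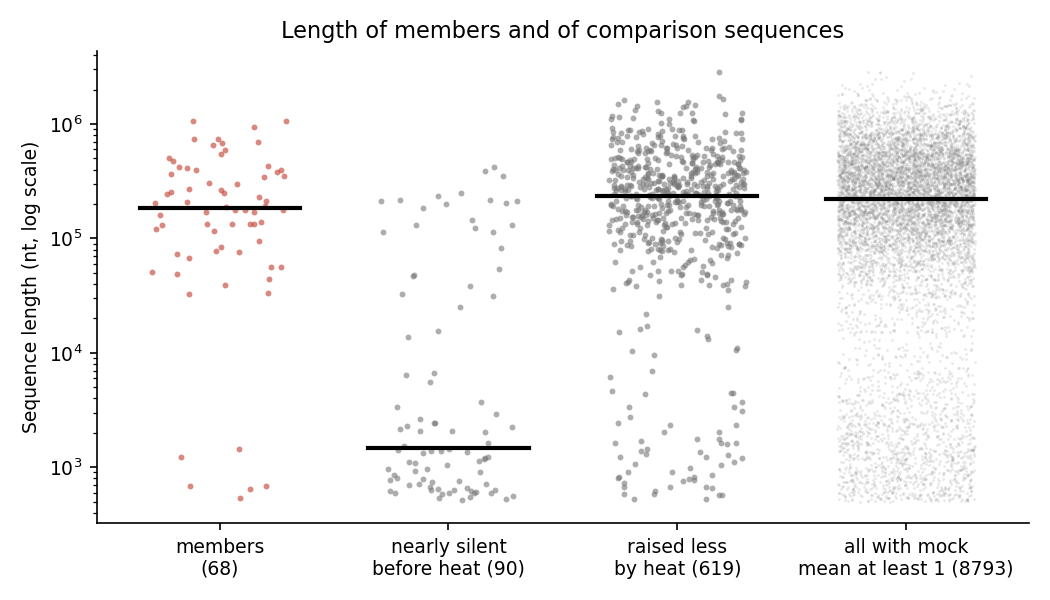
Length in nt (y axis, log scale) of the 68 members, of 90 sequences with the same H/M but a mock mean below 1, of 619 sequences with a smaller rise, and of all 8793 sequences with a mock mean of at least 1. Each point is 1 sequence and black lines are medians, at 183502, 1481.5, 236395 and 219520 nt.

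The wound criterion removed 21 of the strongly raised sequences. Of the 89 with a mock mean of at least 1, an H/M of at least 8 and no overlap of heat with mock libraries, 68 lay in the W/M window, or 76.4%. In the same window lay 79.8% of the 776 with an H/M from 2 to below 8, and 86.3% of all 8793. Among the 21 outside it, 11 were at or above 1.5 and 10 at or below 0.67. The 11 that were also higher after wounding had a median heat mean of 64.4 CPM, and the 10 that were lower after wounding had one of 197 CPM, against 327 CPM in the members.

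The limits of the set are not breaks in the data. At the lower limit of H/M, the contig Niben101Ctg11180 (positions 1 to 1220) lay just inside with 14.9, 20.1 and 17.4 CPM after heat, against 2.77, 0.859 and 1.59 CPM in mock, a ratio of 8.02. Niben101Scf09678 (positions 1 to 348247) lay just outside with 541, 461 and 594 CPM after heat, against 79.7, 57.2 and 63.3 CPM in mock, a ratio of 7.92. At the limit of the mock mean, Niben101Scf14726 (positions 1 to 73279) was inside with a mean of 1.01 CPM and Niben101Scf13920 (positions 1 to 235819) outside with 0.972 CPM. Their heat means were 17.1 and 12.0 CPM.

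At the limits on wounding, the members just inside were Niben101Scf03179 with a W/M of 0.72 and Niben101Ctg01820 with 1.44. Just outside were Niben101Ctg12185 (positions 1 to 1468) with 0.656 and Niben101Scf23254 (positions 1 to 47013) with 1.60. Niben101Scf23254 had 117, 120.2 and 77.5 CPM after heat, 2.21, 2.12 and 1.64 CPM after wounding and 1.10, 0.737 and 1.35 CPM in mock. It was left out by a difference of about 1 CPM between wound and mock means, at an H/M of 67.6 that only 3 members exceed.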

How the data were processed

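Leaf RNA of 9 libraries was analysed from 1 table deposited by the authors, with whole-number counts, TPM and a column headed CPM for each library. Per the labels' protocols, RNA was extracted with Trizol and a company made the libraries. No source used here names the aligner, the counting tool or the strand setting. The genome build is named only through the prefix Niben101 of the sequence names. The deposited CPM is a scaled signal: each count is divided by a constant per library, and sums run from 909726 to 1068742. The deposited TPM, used only as an alternative, divides by the length of the whole sequence.

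The rule above was applied to the deposited CPM. Tests used the deposited counts and edgeR 4.0.16 under R 4.3.3. After filterByExpr, 9645 sequences were left. TMM set the library scaling, a single quasi-likelihood fit took in all 9 libraries, and p-values were adjusted by Benjamini-Hochberg (threshold 0.05). An SE is the fitted change divided by the root of its F statistic. Alternatives used DESeq2 1.42.0, other scalings and filters, a replicate block and each library left out. P-values cover the spread between these libraries, and counts carry counting error.

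The members, comparison sets and thresholds were chosen with earlier results of these data known. Named sequences are the 5 highest heat means, the 5 largest H/M, the 2 shortest and 2 longest, the extremes of heat spread and W/M, and those nearest each threshold; others are marked as chosen after their values were seen, or were called after wounding or deviated in replicate 2. Lists of heat shock, jasmonate and ethylene genes could not be applied, because the table names no genes, and the number of columns of unmapped libraries was 0.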

Additional observations from a re-analysis of the deposited data

How the results depend on the processing

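All 68 members were called higher after heat, against mock and against wound libraries, under 15 of the 16 alternatives of the fit; the requirement of at least 10 counts in every library left 66 to be tested, and all were called. The 17 sequences named by rule kept their heat call wherever they were tested, with an adjusted p of at most 0.00558. The members' median heat response was 3.63 (log2) against mock and 3.71 against wound libraries with upper-quartile factors. After wounding, 3 members were called. Without a filter there were 9, with DESeq2 5, and leaving out 1 library gave 0 to 6. Over all 9645 tested sequences, 951 were called higher and 484 lower in the main fit. Among 16276, it was 1223 and 674 without a filter and 1032 and 704 with DESeq2. The calls of Niben101Scf02829, Niben101Scf06890 and Niben101Scf03179 were lost in 2, 5 and 6 of 16 alternatives. Niben101Scf03179 lost its call with the replicate block (adjusted p = 0.0729) at a log2 fold change of -0.516, against -0.518 without it, where 3 members were called, all higher after wounding. The replicate numbers are not known to pair the libraries. Same-numbered libraries had r of -0.144 to 0.109 between deviations, and 2 of 9 correlated best with their own number. Such values cannot show whether the libraries were paired. The median log2 fold change after wounding was 0.041, and its sign depended on the scaling: 0.0139 with RLE, -0.0272 with upper-quartile factors, -0.0207 with library totals, 0.0236 with the strict filter, 0.0156 with DESeq2, and -0.00722 to 0.0852 with 1 library left out. Over all tested sequences the median was -0.00019 in the main fit and -0.0259 with RLE. It was -0.0674 with upper-quartile factors and -0.0606 with library totals. The cause of the change of sign was not tested.

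The set itself depends on its thresholds: 181 sequences meet an H/M of 4 and 24 meet 16. Library totals gave 58 and the deposited TPM 63, of which 49 were members. Leaving out 1 library gave 64 to 75, and 50 of the 68 stayed in under all 9 omissions. The heat share was 3.68% for the members with an H/M of at least 16, 3.82% without the 5 highest and 5.87% with TMM totals. The same values were 0.122% and 0.239% in wound libraries for the first 2 settings, and 0.119%, 0.233% and 0.298% in mock libraries. A count of a whole scaffold cannot say which of its genes moved, and a member not called after wounding is not shown to be unchanged.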
